A study of Mus musculus with 59 samples.

Results

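Constant PPARα-alone promoter sites were the PPARα peaks of fed mouse liver that were called again after fasting, lay in a promoter and had neither BCL6 nor PPARδ called beside them. They were chosen by 3 conditions on the deposited peak lists. A PPARα peak of fed C57BL/6 liver had to have the centre of a fasted PPARα peak within 200 bp, no centre of a fed or fasted BCL6 or PPARδ peak of C57BL/6 liver within 200 bp, and its own centre between 1000 bp upstream and 100 bp downstream of a RefSeq transcription start site (TSS). Of 21410 fed PPARα peaks, 1021 met the rule. The calls that selected them are a description and carry no test.

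PPARα is a nuclear receptor that is activated by fatty acids and binds DNA as a heterodimer with RXR. Its classical element, the DR1, is a direct repeat of AGGTCA with a single base between the copies. In liver it is known for the genes of fatty acid oxidation and ketone synthesis that are used in fasting. BCL6 is a zinc finger repressor best known from germinal centre B cells that is also present in hepatocytes, and PPARδ is a related receptor that can bind the same elements. Promoters fall broadly into CpG-rich ones, common at genes that most cells use, and CpG-poor ones, common at genes of a single tissue.

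ChIP-seq was performed on whole liver of male mice, with 3 biological replicates per group and 21 samples in the 7 groups used here. PPARα, BCL6 and PPARδ were each mapped in C57BL/6 mice with food ad libitum and in C57BL/6 mice fasted overnight. BCL6 was also mapped in fed Bcl6 fl/fl mice on the C57BL/6 strain, which carry floxed alleles and serve as the controls of a knockout with an albumin-driven Cre. Each deposited list pools its 3 replicates and gives only the position of each peak, so a site was either called or not, the depth is unknown from the lists, and no value has a spread between mice. Whole liver also holds cells other than hepatocytes, and the lists do not tell in which cells a site was bound.

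The fasted PPARα list held 29085 peaks. BCL6 lists held 15642 peaks from fed and 9613 peaks from fasted C57BL/6 liver, and 17454 peaks from floxed fed liver. PPARδ lists held 7328 fed and 2399 fasted peaks. Lists differ in length, so the absence of a call in a short list is a weaker statement than in a long one. Of the fed PPARα peaks, 17096 (79.85%) had a fasted counterpart, and 5211 of these had neither BCL6 nor PPARδ. A promoter position took 1021 of the 5211 (19.6%). Seen from the promoters, 1685 PPARα peaks there were constant, of which 508 had BCL6 and a further 156 had PPARδ without BCL6, and the remaining 1021 (60.6%) were the sites described here.

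3 other classes served for comparison. The first were the 4190 constant PPARα-alone peaks outside promoters, called distal below. The second were the 508 constant promoter peaks with BCL6 in C57BL/6 liver. The third were 2593 promoter peaks that were called for PPARα only in fasted liver, again with neither BCL6 nor PPARδ, called gained. Peaks were the units of every test between classes. They are not replicates of a condition, and intervals of shares are 95% Wilson intervals that cover counting error only.

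The sequences that show the range of DNA under these sites are given first, read from the GRCm38 (mm10) reference on the strand of the named gene, 5′ to 3′, with the element in capitals. A first set holds the closest matches to the DR1 that lie outside every annotated exon. The DR1 was searched on both strands in the 200 bp around each peak centre with up to 2 of its fixed letters mismatched.
Oxsm DR1 (chr14:16243332-16243420, - strand): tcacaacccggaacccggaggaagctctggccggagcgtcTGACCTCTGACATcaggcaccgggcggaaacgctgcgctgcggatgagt
Stk11 DR1 (chr10:80115200-80115292, + strand): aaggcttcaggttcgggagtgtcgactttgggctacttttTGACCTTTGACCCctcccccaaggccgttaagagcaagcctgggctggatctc
Helb DR1 (chr10:120113105-120113197, - strand): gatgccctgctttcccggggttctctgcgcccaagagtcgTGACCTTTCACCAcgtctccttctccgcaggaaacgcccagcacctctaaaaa
Depdc7 DR1 (chr2:104743254-104743346, - strand): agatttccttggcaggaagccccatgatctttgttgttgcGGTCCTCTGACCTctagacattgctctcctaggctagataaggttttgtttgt
Apoa2 DR1 (chr1:171224951-171225043, + strand): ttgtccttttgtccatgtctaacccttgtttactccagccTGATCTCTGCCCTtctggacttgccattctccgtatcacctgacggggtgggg
Hpn DR1 (chr7:31115692-31115784, - strand): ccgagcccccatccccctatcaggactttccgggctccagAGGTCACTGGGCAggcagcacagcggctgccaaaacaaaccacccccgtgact

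Positions in the DR1 are counted from 1 at the 5′ end of the element on its own strand, with the base of the element first. The match at Oxsm, which encodes a mitochondrial fatty acid synthase enzyme, differed from the element at G2T only and lay 43 bp upstream of the TSS. The match at Stk11, the kinase LKB1 that activates AMPK, differed at A1G only and lay 549 bp upstream. Each of the other 4 had 2 mismatches: A1T and C5G at Helb, a DNA helicase; T11A and A13C at Depdc7; T4G and G10A at Apoa2, an apolipoprotein of HDL; and A8T and T11G at Hpn, the membrane protease hepsin. In the Hpn match the capitals run in the direction of the gene, whereas in the other 5 the element lies on the opposite strand and is seen as its complement.

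A second set holds 1 example of each element that was found in a larger share of these sites than of constant promoter peaks with BCL6. They were taken at genes of the families described below.
Cpt2 ETS (chr4:107923590-107923642, - strand): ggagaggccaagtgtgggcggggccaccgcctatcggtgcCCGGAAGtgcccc
Serpinb6a GC box (chr13:34002795-34002858, - strand): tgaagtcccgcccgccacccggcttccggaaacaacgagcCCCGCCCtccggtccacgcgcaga
Med17 NRF1 (chr9:15279916-15280003, - strand): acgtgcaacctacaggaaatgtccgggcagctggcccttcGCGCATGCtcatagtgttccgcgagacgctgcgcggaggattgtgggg
Med17 E-box (chr9:15279959-15280044, - strand): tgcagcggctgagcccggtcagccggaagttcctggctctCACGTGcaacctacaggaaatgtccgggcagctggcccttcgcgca
Srsf4 ZBTB33 (chr4:131873418-131873505, + strand): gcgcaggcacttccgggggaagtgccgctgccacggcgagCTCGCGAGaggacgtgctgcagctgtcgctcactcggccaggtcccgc

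The ETS letters at Cpt2, the carnitine palmitoyltransferase of the inner mitochondrial membrane, stood 10 bp upstream of its TSS. The GC box at Serpinb6a, a protease inhibitor of the cytosol, stood 21 bp upstream on the opposite strand. Med17, a subunit of the Mediator complex, had the NRF1 letters 53 bp upstream and an E-box 95 bp upstream within the same peak. At Srsf4, a splicing factor, the ZBTB33 letters stood 176 bp upstream.

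The sites sat close to the start of transcription. The median centre lay 94 bp upstream of the nearest TSS in the window, and the interquartile range ran from 247 to 17 bp upstream. The 100 bp just before the TSS held 335 centres (32.8%) and the next 100 bp upstream held 194 (19%). Downstream of the TSS lay 195 centres (19.1%), against 6.89% of the promoter peaks with BCL6 and 25.6% of the gained peaks, and more than 500 bp upstream lay 133 (13%), against 25.4% and 8.18%.

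**Figure D1:**
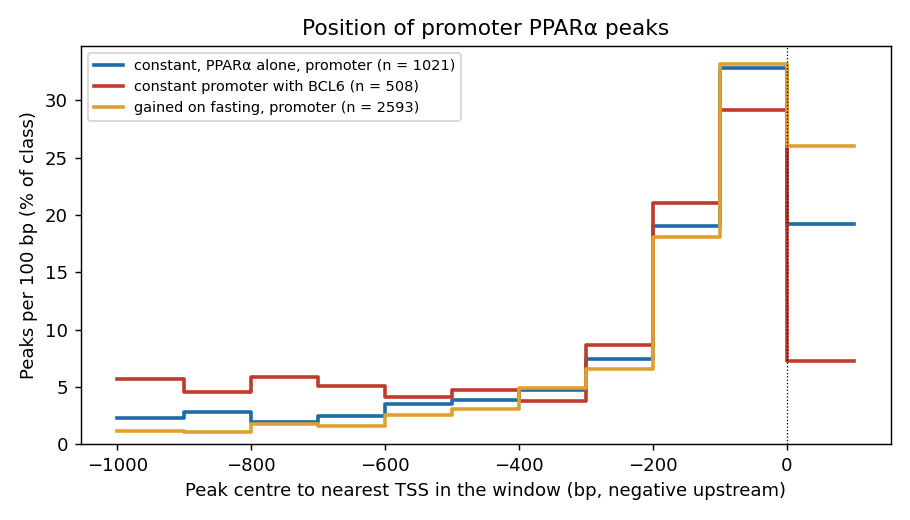
Position of promoter PPARα peaks relative to the nearest TSS in the window. The horizontal axis is the distance of the peak centre from the TSS in bp, negative upstream, and the vertical axis the percentage of each class per 100 bp. The constant PPARα-alone peaks have 32.8% of their centres in the last 100 bp before the TSS, and the promoter peaks with BCL6 are spread more evenly beyond 500 bp upstream.

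The share of centres within 300 bp upstream of the TSS was 606 of 1021 (59.4%) and 301 of 508 (59.3%) in the promoter peaks with BCL6, with no difference detected by Fisher's exact test (odds ratio 1.004, two-sided, adjusted p = 1). Promoters with start sites on both strands within 1000 bp of the centre made up 173 of the 1021 (16.9%, 14.8 to 19.4%) and 32 of the 508 (6.3%, 4.5 to 8.76%). This difference passed the test (odds ratio 3.035, adjusted p = 3.13e-09, adjusted over both position tests). For the 31603 distinct RefSeq start sites, taken at the middle of the 200 bp just upstream of each, the share was 14.2%. Among gained peaks it was 20.6%. Within CpG-rich windows, defined below, the shares were 21.1% and 15.8% and did not pass (unadjusted p = 0.5398, with 38 peaks with BCL6), whereas in the other windows they were 10.1% and 5.53% (unadjusted p = 0.01352).

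The nearest TSS was that of a protein-coding gene for 930 sites (91.1%), of a long non-coding RNA for 76 and of a microRNA for 9. Centres lay outside every annotated transcript in 623 sites, in an exon in 253 and in an intron in 145. The sites were spread over 20 chromosomes, with most on chromosome 11 (90) and 18 on the X chromosome. They had 1002 different nearest genes, so nearly every gene had a single one, and 18 genes had 2 or more.

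Fed and fasted peaks of a site nearly coincided. The distance between the fed and the fasted centre had a median of 27 bp, the interquartile range was 13 to 46 bp, and 783 sites (76.7%) were under 50 bp. The rule limited this distance to 200 bp and the largest was 195 bp, at Gtf2ird2 and Palld. Just outside were Il13ra1 at 206 bp and E2f3 at 207 bp. Near the distance to BCL6 or PPARδ, Il1r1 (201 bp) and Timd2 (203 bp) were inside, and Nr1i2 (183 bp) and Mzt2 (166 bp) were outside. At the ends of the promoter window, Cyp1a1 (995 bp upstream), Lect2 (992 bp upstream), Ubxn4 and Itga1 (both 99 bp downstream) were inside. Nectin1 (1002 bp upstream), Crb3 (102 bp downstream) and Etnk2 (106 bp downstream) were outside.

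A BCL6 centre of C57BL/6 liver stood between 201 and 400 bp away at 13 sites (1.27%). The median distance to the nearest BCL6 peak was 18862 bp in the fed list and 33437 bp in the fasted list, and to the nearest fed PPARδ peak it was 40557 bp. Most sites were thus far from the peaks that the rule kept out.

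The DNA under the sites was rich in G, C and CpG, which the rule did not use. In windows of 200 bp the median G and C content was 61.5%, against 50% at distal sites, 47% at promoter peaks with BCL6 and 64.5% at gained peaks. The ratio of observed to expected CpG had a median of 0.743, against 0.23, 0.242 and 0.824. The windows at all RefSeq start sites, used as a background, were the 200 bp just upstream of each. A window was called CpG-rich when its G and C content was over 50% and its ratio of observed to expected CpG over 0.6. By that measure 636 of the 1021 sites (62.3%, 59.3 to 65.2%) were CpG-rich, as were 5.66% of distal sites, 7.48% of promoter peaks with BCL6, 75.8% of gained peaks and 39.7% of the windows at all RefSeq start sites. Both groups of promoter peaks without BCL6 thus lay on the CpG-rich side of the promoters of the genome, and the group with BCL6 on the other.

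**Figure D2:**
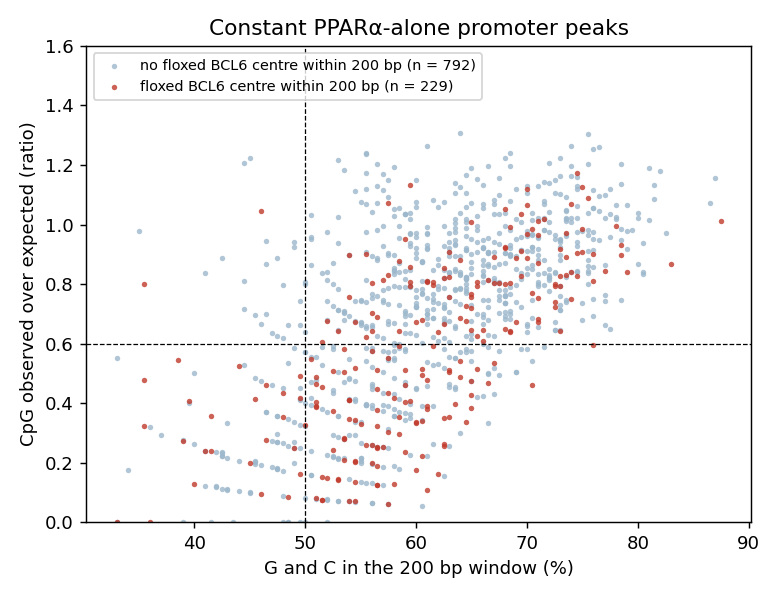
G and C content (%, horizontal axis) and observed over expected CpG (ratio, vertical axis) in the 200 bp around each of the 1021 sites, 1 point per site. Dashed lines mark 50% and 0.6, and the 636 CpG-rich sites lie in the upper right part. Red points are the 229 sites with a BCL6 centre of floxed fed liver within 200 bp, which are found in all parts of the plot and in a larger share of the sites that are not CpG-rich.

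The sites divided along this line. CpG-rich sites had a median centre 63 bp upstream of the TSS, and the other 385 sites had one 160 bp upstream. Start sites on both strands, whichever way they pointed, stood at 21.1% of the CpG-rich and 10.1% of the other sites (Fisher's exact test, odds ratio 2.368, adjusted p = 1.47e-05). A protein-coding gene was nearest at 94% and 86.2% (odds ratio 2.512, adjusted p = 9.24e-05). This split was chosen after the composition was seen, and its p-values were adjusted over 10 measures.

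Sequence elements were searched on both strands in the same windows, with 16 elements chosen from known factors. ETS and GC box letters were found in a larger share of the sites than of promoter peaks with BCL6, and DR1 and HNF6 letters in a smaller one. Against the 508 promoter peaks with BCL6, 12 of the 16 differed at an adjusted p under 0.05 by Fisher's exact test over 48 comparisons, 5 higher and 7 lower. Against distal sites 12 differed, 7 higher and 5 lower, and against gained peaks 7 differed, 4 higher and 3 lower. Many of these contrasts moved with the composition of the windows. Within CpG-rich windows, where only 38 peaks had BCL6, 0 of the 16 elements passed against peaks with BCL6, and in the other windows 6 did: ETS and GC box higher, and DR1, C/EBP, HNF6 and TATA lower. Against gained peaks 0 passed within either class.

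The ETS letters CCGGAAG, bound by ETS factors at the promoters of many widely used genes, stood in 252 sites (24.7%, 22.1 to 27.4%). They stood in 2.95% of promoter peaks with BCL6 (odds ratio 10.8, adjusted p = 8.85e-31), in 2.96% of distal sites (odds ratio 10.8, adjusted p = 9.33e-97) and in 7.46% of windows at all start sites. In CpG-rich windows alone the share was 34% of the sites, 21.1% of 38 peaks with BCL6 (adjusted p = 0.2955) and 13.9% of 237 distal sites (adjusted p = 7.20e-08). In the other windows it was 9.35%, 1.49% (adjusted p = 1.49e-06) and 2.3% (adjusted p = 1.49e-09). The letters read backwards, which hold no CpG and so are not matched in CpG, stood in 4.6% of the sites. Of the 252 matches, 174 lay within 50 bp of the peak centre, where the match nearest the centre was counted if a window held several.

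The GC box GGGCGGG, bound by SP and KLF factors, stood in 352 sites (34.5%, 31.6 to 37.4%), against 5.12% of promoter peaks with BCL6 (odds ratio 9.75, adjusted p = 1.27e-41) and 38.95% of gained peaks (odds ratio 0.825, adjusted p = 0.02437). Windows at all start sites had it at 27.6%, much nearer to the sites than the peaks with BCL6 were. In CpG-rich windows the shares were 45% of the sites, 36.8% of the peaks with BCL6 (adjusted p = 0.6785) and 45.3% of gained peaks (adjusted p = 1). In the other windows they were 17.1%, 2.55% (adjusted p = 1.18e-12) and 19.1% (adjusted p = 0.7244). These letters read the same backwards, so no reversed control exists for them.

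Less common elements of CpG-rich promoters followed. NRF1 letters (GCGCATGC, a factor of nuclear genes for mitochondrial proteins) stood in 36 sites (3.53%) and 0.394% of promoter peaks with BCL6 (adjusted p = 1.72e-04), a contrast that passed in neither CpG-rich windows (5.35% and 2.63%, adjusted p = 0.9187) nor the others (0.519% and 0.213%, adjusted p = 0.8347). Gained peaks had NRF1 letters at 4.32% (adjusted p = 0.3494) and windows at all start sites at 2.47%. The E-box CACGTG, read by USF, MYC and the clock proteins, stood in 89 sites (8.72%) and 4.33% (adjusted p = 0.003502), but in 11.4% of gained peaks (adjusted p = 0.03164). For windows at all start sites its share was 5.63%. In CpG-rich windows alone the E-box was at 10.2% of the sites and 15.8% of the peaks with BCL6 (adjusted p = 0.5737), and in the other windows at 6.23% and 3.4% (adjusted p = 0.1673). ZBTB33 letters (CTCGCGAG) stood in 12 sites (1.18%) and in 0 of the 508, which allows a share of up to 0.591% (adjusted p = 0.02175), and within CpG-rich and other windows this did not pass (adjusted p = 1 and 0.7244). Gained peaks had ZBTB33 letters at 1.735% (adjusted p = 0.3494) and windows at all start sites at 0.801%. At least 1 of ETS, GC box, NRF1, CRE, YY1, ZBTB33 and E-box was found in 573 sites (56.1%). This pooled count was made for the sites only, so no share of another class stands beside it.

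The DR1 was scarce. It stood in 48 sites (4.7%, 3.56 to 6.18%), against 13.8% of promoter peaks with BCL6 (odds ratio 0.309, adjusted p = 8.36e-09), 14.7% of distal sites (odds ratio 0.286, adjusted p = 3.51e-20), 13.7% of all fed PPARα peaks and 2.27% of windows at all start sites. Against the 4.13% of gained peaks no difference was detected (adjusted p = 0.4968). Of the 48, 9 had 1 mismatch and the rest had 2, and 0 of 1021 held the exact element, which allows a share of up to 0.294%. The DR1 letters backwards stood in 2.16% of the sites and 4.92% of peaks with BCL6, a difference in the same direction (odds ratio 0.426, adjusted p = 0.01908). In CpG-rich windows the DR1 stood in 2.83% of the sites and 5.26% of the peaks with BCL6 (adjusted p = 0.6004), and in the other windows in 7.79% and 14.5% (adjusted p = 0.01166).

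The monomer site TCAAGGTCA, an AGGTCA with a 5′ extension, read by estrogen-related and other monomeric receptors, stood in 64 sites (6.27%) with up to 1 mismatch, against 13.4% of promoter peaks with BCL6 (adjusted p = 2.06e-05). This contrast passed in neither CpG-rich windows (4.4% and 7.89%, adjusted p = 0.6785) nor the others (9.35% and 13.8%, adjusted p = 0.1548), and the letters backwards also differed (5.29% and 8.86%, adjusted p = 0.03695). Gained peaks had the monomer site at 4.32%, below the sites (odds ratio 1.48, adjusted p = 0.02838), but this difference passed in neither composition class. Neither DR1 nor monomer site was found in 912 sites (89.3%). This count was made for the sites only. Windows at all start sites held each of the 2 elements in a smaller share than the sites did, at 2.27% and 4.4%. The BCL6 letters TTCCTAGAA, with up to 1 mismatch, stood in 62 sites (6.07%), fewer than the 9.25% of promoter peaks with BCL6 (adjusted p = 0.04109) and more than the 3.55% of gained peaks (odds ratio 1.76, adjusted p = 0.00292). Windows at all start sites had the BCL6 letters at 5.43%. The contrast with peaks with BCL6 passed neither on autosomes only (adjusted p = 0.06742), nor in CpG-rich windows (4.56% and 13.2%, adjusted p = 0.1749), nor in the others (8.57% and 8.94%, adjusted p = 0.9638). In neither composition class did the contrast with gained peaks pass (4.56% and 3.05%, adjusted p = 0.2513; 8.57% and 5.1%, adjusted p = 0.1026).

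Elements of hepatocyte factors stood in smaller shares of the sites than of promoter peaks with BCL6, but not than of every other class. The HNF6 letters TATTGAT stood in 7 sites (0.686%) and 7.09% of promoter peaks with BCL6 (odds ratio 0.0905, adjusted p = 3.70e-11), and outside CpG-rich windows in 1.3% and 7.66% (adjusted p = 6.57e-05). FOXA letters (TGTTTAC) stood in 37 (3.62%) and 10.6% (adjusted p = 8.94e-07). The FOXA contrast passed in neither CpG-rich windows (1.89% and 2.63%, adjusted p = 0.7525) nor the others (6.49% and 11.3%, adjusted p = 0.05783), and the letters backwards also differed (1.27% and 5.51%, adjusted p = 7.30e-05). Gained peaks had FOXA letters at 2.2% (adjusted p = 0.03164) and windows at all start sites at 2.07%, both below the sites. C/EBP letters (TTGCGCAA, up to 1 mismatch) stood in 89 (8.72%) and 16.1% (adjusted p = 5.97e-05), and outside CpG-rich windows in 8.57% and 16% (adjusted p = 0.007684). Distal sites had them at 9.57% (adjusted p = 0.4767), gained peaks at 6.21% (adjusted p = 0.01742) and windows at all start sites at 4.36%. The TATA letters TATAAAA stood in 4 sites (0.392%) and 3.54% (adjusted p = 1.07e-05), and outside CpG-rich windows in 0.779% and 3.62% (adjusted p = 0.02173), while the letters backwards differed too (1.08% and 4.13%, adjusted p = 0.001337). None of the 16 elements was found in 273 sites (26.7%), a count made for the sites only. A match is a string of letters in the window and not evidence of a bound factor.

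**Figure D3:**
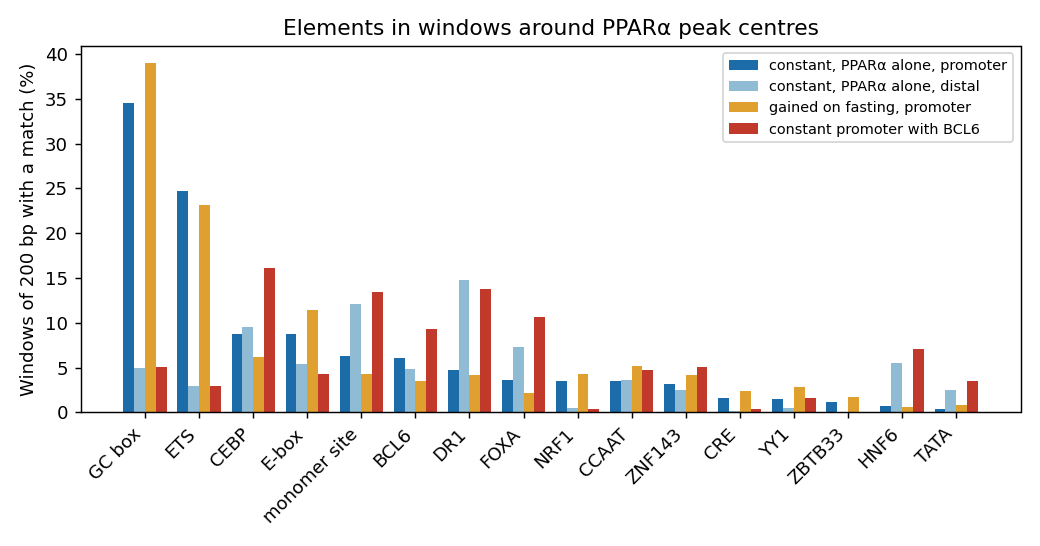
Percentage of 200 bp windows with a match (vertical axis) for each of the 16 elements, in the 4 classes of PPARα peaks. GC box and ETS letters stand in 34.5% and 24.7% of the constant PPARα-alone promoter sites and in 5.12% and 2.95% of constant promoter peaks with BCL6, and the DR1 in 4.7% and 13.8%.

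BCL6 was measured once more in mice that the rule did not use, the floxed fed livers. There, 229 of the 1021 sites (22.4%, 20 to 25.1%) had a BCL6 centre within 200 bp, although none had one in either C57BL/6 list. Over all fed PPARα peaks the share was 55.4%, a background that includes the peaks with BCL6 in C57BL/6 liver, of which the 508 in promoters had 79.9%. The floxed BCL6 centre lay a median of 33 bp from the PPARα centre, and 159 of the 229 (69.4%) were within 50 bp. The floxed list was also longer than the fed C57BL/6 list, and how far list length or depth bears on these calls was not tested.

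Distal sites chosen by the same exclusions had floxed BCL6 at 1276 of 4190 (30.45%, 29.1 to 31.9%), more than the promoter sites (Fisher's exact test, odds ratio 0.66, adjusted p = 2.89e-07). In CpG-rich windows alone the shares were 17.3% of the promoter and 36.3% of the distal sites (odds ratio 0.367, adjusted p = 1.01e-08). In the other windows they were 30.9% and 30.1% (odds ratio 1.039, adjusted p = 0.7712), and the difference between the odds ratios of the window types was not tested.

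Gained promoter peaks had floxed BCL6 at 134 of 2593 (5.17%, 4.38 to 6.09%), fewer than the constant sites (odds ratio 5.31, adjusted p = 3.84e-48). This contrast held within both composition classes, at 17.3% and 4.28% in CpG-rich windows (odds ratio 4.68, adjusted p = 2.36e-23) and 30.9% and 7.96% in the others (odds ratio 5.17, adjusted p = 1.71e-20). Both classes were without BCL6 in C57BL/6 liver by the rule, and they differed in whether PPARα was called in the fed state.

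Within the sites, floxed BCL6 stood at 119 of the 385 that were not CpG-rich and at 110 of the 636 that were (odds ratio 0.468, adjusted p = 3.23e-06). DR1 letters showed the same order (7.79% and 2.83%, adjusted p = 6.58e-04), as did FOXA letters (6.49% and 1.89%, adjusted p = 4.21e-04), while ETS letters had the opposite one (9.35% and 34%, adjusted p = 2.45e-19). For C/EBP letters the shares were 8.57% and 8.81% (adjusted p = 1).

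**Figure D4:**
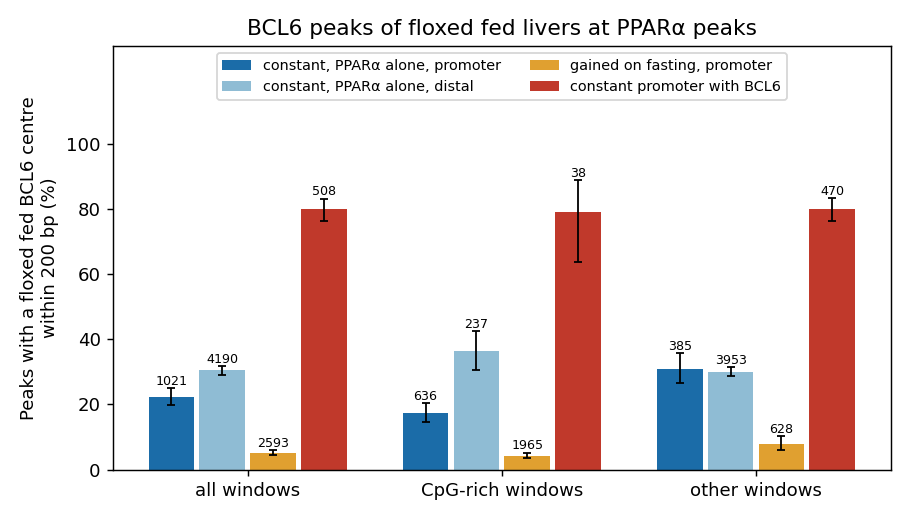
Percentage of PPARα peaks with a BCL6 centre of floxed fed liver within 200 bp (vertical axis), for all windows, CpG-rich windows and the other windows. Bars are the 4 classes of peaks, error bars are 95% Wilson intervals and the number over each bar is its peaks. The constant PPARα-alone promoter sites (22.4% in all) lie above the gained peaks in each set, and near the distal sites in windows that are not CpG-rich.

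The sites with the nearest floxed BCL6 centre, at 0 to 2 bp, belonged to genes of diverse roles. They included Hsd11b1, which reactivates glucocorticoids, at chr1:193242332-193242548, and Inhbe, a liver inhibin subunit, at chr10:127352284-127352500. Fah, the last enzyme of tyrosine breakdown, had a site 655 bp upstream at chr7:84606489-84606705 with floxed BCL6 1 bp away and a second one 80 bp downstream with the nearest floxed centre 736 bp away. Others were Klf3, a repressor, Rcan1, an inhibitor of calcineurin, Cnot8, a deadenylase subunit, Chd1, a chromatin remodeller, Cmtm8, and 2 sites of Prkag2, described next. The C57BL/6 fed BCL6 list had its nearest centre 1912 bp from the upstream Fah site and 12716 bp from that of Hsd11b1. Of these 10 sites 5 were CpG-rich, beside 62.3% of all sites.

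Prkag2, a regulatory subunit of the energy sensor AMPK, was the only gene with 3 sites. They lay at chr5:24908921-24909137, chr5:25100661-25100877 and chr5:25101197-25101413, at 520, 127 and 663 bp upstream of the nearest TSS. Floxed BCL6 stood 19, 0 and 0 bp from them, while the nearest fed C57BL/6 BCL6 centres were 21909, 14375 and 14911 bp away. All 3 were thus called for BCL6 in the floxed list, while neither C57BL/6 list had a centre near them. Aadac, an esterase of lipid droplets and the endoplasmic reticulum, had a pair of sites 817 and 40 bp upstream with G and C contents of 33% and 39%, and the nearest floxed BCL6 centres were 63934 and 63157 bp away. Ampd2, an AMP deaminase, and Arhgef1 had a pair each, with floxed BCL6 centres 2363 bp away or more.

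Genes of the families were counted by whether any of their start sites had a site in its promoter window. Over 21000 protein-coding genes, 999 (4.76%) had one. Of 38 families, 30 had a larger share than that, with a median of 8.14%. The families hold mostly genes that all cells use, and gained peaks also exceeded their own background of 12.7% in 30 of the 38, so these counts describe where promoter peaks lie and give no support for a theme. The families were chosen with earlier results of these data known.

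Genes of fatty acid oxidation and PPAR targets had sites at 9 of 91 (9.89%, 5.29 to 17.7%), and constant promoter peaks with BCL6 at 11 of 91 (12.1%). The shares over all protein-coding genes differed, at 4.76% for the sites and 2.03% for the peaks with BCL6. The BCL6 group held Acadm, Acsl1, Acot4, Fabp1, Eci2 and Ech1 among others.

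Ehhadh, the bifunctional enzyme of peroxisomal β-oxidation, had a site 68 bp upstream at chr16:21787794-21788010, with the fed and fasted centres at the same base. A fasted BCL6 centre stood 399 bp and a floxed one 464 bp from it, and the fed one 4884 bp. Cpt2 had its site 13 bp upstream at chr4:107923494-107923710, with ETS and GC box letters and the nearest BCL6 centre of any list 1521 bp away. Fads2, the Δ6 desaturase, had one 188 bp upstream, with centres 1 bp apart between fed and fasted liver and floxed BCL6 864 bp away.

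4 of the 9 had floxed BCL6 within 200 bp, beside 22.4% of all 1021 sites. Slc27a2, a fatty acid transporter and acyl-CoA synthetase, had it at 5 bp from its site at chr2:126552752-126552968. Echs1, the enoyl-CoA hydratase of mitochondria, had it at 26 bp, with a DR1 of 2 mismatches in the window. For Plin2, the lipid droplet coat protein, the distance was 49 bp, and for Txnip, the thioredoxin-interacting protein, 88 bp. In C57BL/6 fed liver the nearest BCL6 centres of these 4 were at 2824, 837, 987 and 2687 bp. Acss3, an acyl-CoA synthetase, had its nearest BCL6 centre of any list 2375 bp away.

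Of 17 peroxisome biogenesis genes, Pex6 (1 bp downstream) and Pex7 (415 bp upstream) had sites, and 0 had a promoter peak with BCL6, which allows a share of up to 17.6%. This 0 also lies near the background, 2.03% of all protein-coding genes. Pex6 lay in a CpG-rich window with ETS and GC box letters, and Pex7 in a window with 39.5% G and C. Among receptors of the PPAR, RXR and LXR group and their cofactors, 4 of 26 had sites. Constant promoter peaks with BCL6 stood at 2 of the 26, Nr1h4 and Pparg. Nr1h4, which encodes the bile acid receptor FXR, thus had both kinds of promoter peak. Its site lay 89 bp upstream at chr10:89506639-89506855 with floxed BCL6 59 bp away. Ncoa2, a coactivator, had one with a DR1 and floxed BCL6 at 14 bp. Tbl1xr1, a subunit of the NCoR and SMRT corepressor complexes, had one with floxed BCL6 at 6 bp, and Rxrg, a partner of PPARs, one with the nearest floxed BCL6 centre 65382 bp away.

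Clock genes had the largest share of the families, 7 of 19 (36.8%, 19.2 to 59%), with 0 promoter peaks with BCL6, which allows up to 15.8%. Such a peak stood at 2.03% of all protein-coding genes, so this 0 lies near the background. Gained peaks also stood at 7 of the 19. The clock genes with a site included Clock, an activator of the cycle, Nr1d1, a heme receptor that represses it, Rora, a receptor that competes with Nr1d1, and the regulators Bhlhe40, Nfil3 and Tef. Nr1d1 had its site 46 bp downstream of a TSS at chr11:98775223-98775439. Its nearest fasted BCL6 centre was 305 bp and its floxed one 314 bp away. The site of Clock stood 468 bp upstream at chr5:76303862-76304078 in a window with 77.5% G and C, with the nearest fed BCL6 centre at 2090 bp. Nfil3 lay 320 bp upstream, with fed BCL6 780 bp and floxed BCL6 776 bp away, and Bhlhe40 lay 218 bp upstream with an E-box and floxed BCL6 at 847 bp. None of the 7 had floxed BCL6 within 200 bp. Of all 22 sites at lipid and regulator genes, 7 had it, 12 were CpG-rich and 3 had a DR1. Over all 1021 sites these shares were 22.4%, 62.3% and 4.7%.

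**Figure D5:**
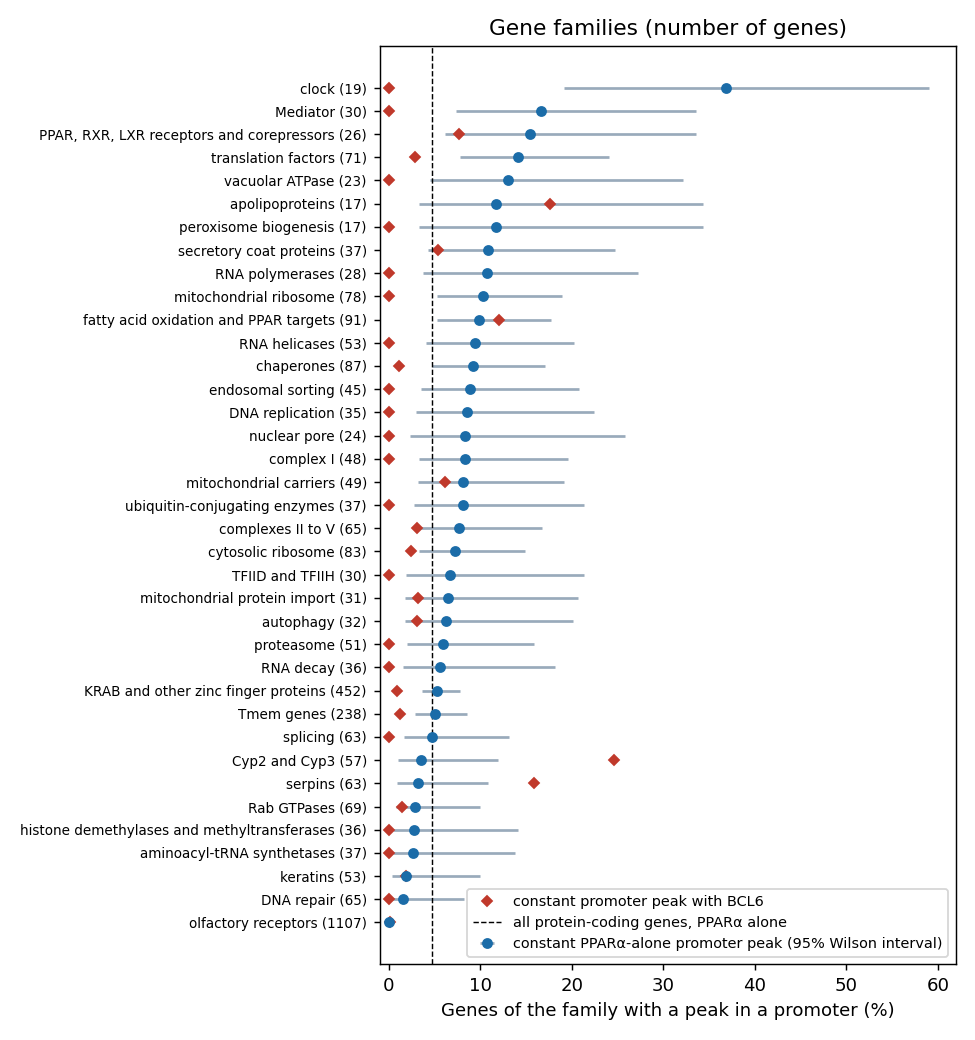
Percentage of genes of each family with a peak in a promoter (horizontal axis), for families of 15 or more genes, with the number of genes in brackets. Blue points are constant PPARα-alone peaks with 95% Wilson intervals, red diamonds constant promoter peaks with BCL6, and the dashed line is 4.76%, the share of all protein-coding genes for the former. Clock genes lie at 36.8%, and Cyp2 and Cyp3 genes and serpins have larger shares for peaks with BCL6.

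Families for mitochondria, protein synthesis and transcription held 23, 17 and 10 genes with a site. Translation factors had sites at 10 of 71 (14.1%), Mediator subunits at 5 of 30 (16.7%), proteins of the mitochondrial ribosome at 8 of 78 (10.3%), chaperones at 8 of 87 (9.2%), complex I at 4 of 48 (8.33%), complexes II to V at 5 of 65 (7.69%) and the cytosolic ribosome at 6 of 83 (7.23%). Constant promoter peaks with BCL6 stood at 0 of the 30 Mediator, 0 of the 78 mitochondrial ribosome and 0 of the 48 complex I genes, which allows shares of up to 10%, 3.85% and 6.25%. Only 426 of all protein-coding genes (2.03%) had such a peak, so these counts of 0 lie near the background. Zinc finger genes (24 of 452, 5.31%) and Tmem genes (12 of 238, 5.04%) were near the 4.76% of all genes. DNA repair genes had 1 of 65, and olfactory receptor genes 0 of 1107, which allows up to 0.271%.

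In the 10 families outside the lipid and regulator groups with the most sites, the 3 sites nearest to a TSS in each were examined. The tenth place was a tie of 4 families with 4 genes each, of which complex I was taken as the first in the list and the mitochondrial carriers, endosomal sorting and secretory coat proteins were not. The 30 centres lay between 124 bp upstream and 66 bp downstream of the TSS. A CpG-rich window was found at 29, ETS letters at 11 and GC box letters at 10. Floxed BCL6 stood within 200 bp at 1 of the 30, Tmem177 (120 bp). Over all 1021 sites the shares were 62.3% CpG-rich, 24.7% with ETS letters, 34.5% with a GC box and 22.4% with floxed BCL6. These 30 were picked for lying near the TSS, so they are not a sample of all sites in their families.

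Mrpl45 and Mrpl10, subunits of the mitochondrial ribosome, had centres at the TSS and 23 bp upstream. Eif4e2, a cap-binding protein, had its centre 11 bp upstream with ETS and GC box letters, and its fasted centre lay 186 bp away, near the limit of the rule. Rps3, a protein of the small ribosomal subunit, had a centre 5 bp downstream with GC box and YY1 letters. Ndufab1, the acyl carrier protein of complex I, had a centre 5 bp upstream in a window of 76.5% G and C. Cox17, a copper chaperone of cytochrome oxidase, had one 17 bp upstream. At several of these a second gene began in the same window, so the site could not be assigned to 1 gene: Mrpl30 shared it with Mitd1, Ndufa1 with Rnf113a1, and Bag1 with Chmp5.

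In liver gene families the share was larger for peaks with BCL6 than for the sites, as counts with no test. Cyp2 and Cyp3 genes, of drug and steroid oxidation, had sites at 2 of 57 (3.51%) and constant promoter peaks with BCL6 at 14 (24.6%). Serpins, the family of plasma protease inhibitors, had 2 of 63 (3.17%) and 10 (15.9%). Apolipoproteins, taken by gene name, had 2 of 17, Apoa2 and Apoa5, and 3, Apobec1, Apoc3 and Apoh. Apobec1 encodes an RNA-editing enzyme and not an apolipoprotein, so this count and the summed share below include a gene outside the family. Summed over these 3 liver families, the shares were 4.38% and 19.7%, beside 4.76% and 2.03% of all protein-coding genes, so the sites were near their background there. Related genes of a family can share sequence, and the authors kept uniquely mapped reads only, so sites at near-identical copies such as the Cyp2 genes can be missing from any list.

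Some genes with a site also had BCL6 with PPARα elsewhere. A fed PPARα peak with a C57BL/6 BCL6 centre within 200 bp had its nearest TSS at 456 of the 999 genes (45.6%, 42.6 to 48.8%), against 24% of all protein-coding genes and 32.2% of the 2664 genes with a gained peak. The most such peaks at 1 gene was 21. The median number per gene was 0, so most genes with a site had no such peak.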

How the data were processed

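The 7 lists used here give the chromosome, start and end of PPARα, BCL6 and PPARδ peaks from whole liver of male mice, with 3 samples per list. Per the labels and the methods, Bowtie was used by the authors for alignment to mm10, multi-mapping reads were dropped, HOMER called peaks over input from pooled replicates, and DESeq2 on single libraries filtered them at a false discovery rate of 0.05. The deposited lists hold no count or score, so the depth and the strength of a peak are unknown from them. A list is 1 call over its replicates, and an absent peak can be a peak below the threshold. The study reports that peaks shared by BCL6 and PPARα had the strongest binding of each factor. It reads those shared peaks as likely true DNA contacts rather than unspecific signal at open chromatin. The strength of PPARα binding at the sites described here was not tested. Each list has 1 peak width, from 192 to 222 bp. Peak coordinates are printed as listed.

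Peak centres were compared at 200 bp, the distance used in the study. The RefSeq annotation of GRCm38, which is the mm10 assembly, gave 45756 transcripts with 31603 distinct start sites. Windows of 200 bp around the centres were read from that assembly without masking repeats, and elements were matched on both strands. CpG and element results can overlap where an element itself holds CpG. Fisher's exact test, two-sided, compared shares, and p-values were adjusted (Benjamini-Hochberg) over 48 element tests, 2 floxed tests, 2 position tests or 10 tests within the sites. Functions were tested on simulated data, with every planted overlap and element found. Python 3.11.15, NumPy 2.4.6, SciPy 1.17.1, pandas 2.3.3, pysam 0.24.0 and Matplotlib 3.10.9 were used.

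The sites, families and elements were chosen with earlier results of these data known. Named genes were all sites at lipid and regulator genes, the 3 nearest to a TSS in each of the 10 other families with most sites, the 5 genes with most sites, the 10 with the nearest floxed BCL6 centre, the 6 with the best DR1 and those just inside or outside a distance of the rule. Sequences come from the best DR1 matches outside exons and from 1 site for each element found in a larger share than with BCL6. Serpinb6a, Srsf4 and Med17 are named for these sequences. A few genes that the rule names are not reported here. Genes that only complete a family list are named without values. Alternatives covered the shared distance, the promoter window, the transcripts, the element windows and mismatches, and autosomes only. Splits by CpG-rich windows were added after the data were seen.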

Additional observations from a re-analysis of the deposited data

How the results depend on the processing

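The count of 1021 sites ranged from 792, when floxed BCL6 was excluded too, to 1274, when promoters reached 1000 bp downstream. No paired analysis was possible because each list pools its replicates into 1 set of positions, and for the same reason no replicate could be left out. A stricter peak threshold could not be tried, as the lists hold no scores. Of 65 alternatives, 48 kept the direction and the side of the threshold or a count within 1.5 times. The 65 include counts of sites, which carry no test, and the letters backwards, a control. The control against distal sites is among the 48, although a kept count is no agreement there. The number of elements that differed fell in smaller windows. In windows of 50 bp it was 6 of 16 against distal sites, 1 against gained peaks and 7 against promoter peaks with BCL6, and in windows of 100 bp it was 4 against gained peaks and 7 against peaks with BCL6. Against gained peaks it was 4 with promoters cut at 500 bp upstream and 4 with fewer mismatches. With the letters backwards, a control, 1 differed against gained peaks, 6 against peaks with BCL6 and 8 against distal sites. Each of these counts includes the GC box, which reads the same backwards and is no control. It was the only element that differed against gained peaks, so no true reversal differed there. Against peaks with BCL6 and against distal sites, reversed letters of other elements also differed. In CpG-rich windows, a split chosen after seeing the data that also reduces the peaks, 3 differed against distal sites, 0 against gained peaks and 0 against peaks with BCL6. In the other windows the numbers were 7, 0 and 6. The floxed BCL6 contrast with distal sites reversed to an odds ratio of 1.039 outside CpG-rich windows (adjusted p = 0.7712). The contrast in start sites on both strands, against peaks with BCL6, fell to an odds ratio of 1.424 within CpG-rich windows. The cause of these shifts was not tested. The floxed BCL6 contrast with gained peaks kept its direction and passed in all 9 alternatives, with odds ratios from 4.683 to 5.738. Repeats of an element that differed were counted without the letters backwards. With fewer mismatches, elements already searched at 0 mismatches were unchanged, so those repeats could not reverse. Of the 248 repeats, 6 had the opposite direction. They were the monomer site against gained peaks with fewer mismatches, and in CpG-rich windows the DR1, monomer site and TATA against distal sites and the E-box and HNF6 against peaks with BCL6. The lists give no depth, so sites below the authors' threshold cannot be told from unbound ones.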
